A study of Mus musculus with 8 samples.

Results

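Gfap, Vim, Nes, Synm, Krt18 and Krt8 encode intermediate filament proteins of glia, of immature or migrating cells and of simple epithelia, and their transcript levels in mouse retina are described here. They are 6 of the 26824 genes in the count table, and were selected by name on the measured rise of Gfap and Krt18 in the same comparison. Their differences between the groups are therefore given as a description. Calls from the test run on all genes are also given for them, but nothing is read from those calls. The retinas came from wild-type (WT) mice and from mice labelled as knockouts (KO) of Kv8.2, which Kcnv2 encodes and which photoreceptors use as a modulatory subunit of their potassium channels. All mice were 1 month old, and each library was made from total RNA of 2 pooled retinas of an individual mouse, which gave 3 WT libraries (WT 1 to WT 3) and 5 KO libraries (KO 2 to KO 6). The knockout allele, strain, sex and any treatment are not given in the labels used here. The submitters state that 2 KO samples were left out of their own test but do not name them, so every library was used.

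Intermediate filaments are rope-like polymers of coiled-coil proteins that give a cell mechanical strength. GFAP and vimentin are type III filament proteins, nestin is a large filament protein of progenitor cells, and synemin is a large filament protein that joins vimentin or desmin networks rather than forming filaments by itself. Keratins are built only as pairs of a type I and a type II chain, and keratin 18 (type I) with keratin 8 (type II) is the usual pair of simple epithelia. Muller glia span the whole retina, hold vimentin in the resting state, and are known to gain GFAP in many kinds of retinal injury and degeneration. Astrocytes of the inner retina hold GFAP at all times, and vimentin is also made by endothelium, mural cells, fibroblasts and the lens.

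Promoters of Gfap, Krt18 and Krt8 are printed because Gfap and Krt18 had the largest differences among the members, while Krt8, the gene of the usual partner of keratin 18, had none that exceeded its spread. The sequences are from RefSeq on GRCm38.p6 and run 5′ to 3′ on the gene's own strand up to the RefSeq start. The windows are chr11:102897194-102897450 on the minus strand for Gfap, chr15:102027966-102028215 on the plus strand for Krt18 and chr15:102004343-102004592 on the minus strand for Krt8. Capitals mark the only match among the members to TTCNNNGAA, a palindromic pattern of the kind bound by STAT factors, and the Gfap run is extended to the end of that match.
Gfap: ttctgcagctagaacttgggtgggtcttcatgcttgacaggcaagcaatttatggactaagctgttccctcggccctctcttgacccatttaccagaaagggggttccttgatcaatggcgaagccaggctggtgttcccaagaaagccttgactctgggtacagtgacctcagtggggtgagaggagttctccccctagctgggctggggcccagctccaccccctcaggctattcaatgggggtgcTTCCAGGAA
Krt18: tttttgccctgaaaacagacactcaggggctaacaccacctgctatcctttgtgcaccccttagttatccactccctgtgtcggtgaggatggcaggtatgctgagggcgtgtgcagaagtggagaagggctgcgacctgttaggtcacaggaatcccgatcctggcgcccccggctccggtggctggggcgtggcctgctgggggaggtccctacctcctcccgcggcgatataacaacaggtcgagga
Krt8: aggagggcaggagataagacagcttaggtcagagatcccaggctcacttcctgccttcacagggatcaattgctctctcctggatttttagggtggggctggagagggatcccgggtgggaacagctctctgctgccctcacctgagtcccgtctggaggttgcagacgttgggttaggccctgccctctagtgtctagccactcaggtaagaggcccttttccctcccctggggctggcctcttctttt
The Gfap match TTCCAGGAA lies from position -2 to position 7 around the RefSeq start. All 6 members had a promoter in the RefSeq table, and both strands of the 300 bases from 250 before to 50 after each start were searched. The other 5 had no match to TTCNNNGAA, and none of the 6 matched TGANTCA, a pattern of the kind bound by AP-1 factors. Of all 32851 promoters of the same length, 8.3% held TTCNNNGAA and 7.81% held TGANTCA. In the 250 bases before the start, GC content was lowest for Gfap at 55.6% and highest for Synm at 70.0%. The same bases held 2 CG pairs for Gfap, 3 for Krt8, 8 for Vim, 12 for Krt18, 15 for Nes and 23 for Synm. A match is a description of letters and shows no bound factor.

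Libraries held 17759146 to 25188870 counts, and levels are given as CPM, counts per 1e+06 counts after TMM scaling (trimmed mean of M values). Kcnv2 lay at 519 to 551 CPM in the WT libraries. In KO it was at 585 CPM in KO 2, 447 CPM in KO 3 and 398 to 409 CPM in KO 4 to KO 6. The groups overlapped, so gene-level counts of Kcnv2 do not check the KO label, and the libraries are called by their labels throughout. In a principal component analysis, KO 4, KO 5 and KO 6 lay at 45.7 to 58.1 on the first component, which held 39.5% of the variance, and all others lay at -40.2 to -11.9. KO 3 stood apart by lens transcripts, with a summed level of 15 lens markers of 42312 CPM against 1.82 to 1480 CPM in the other libraries. WT 1 stood apart by 9 surface epithelium markers, at 31.4 CPM against 7.28 to 7.62 CPM in the other WT libraries and 4.05 to 19.1 CPM in the KO libraries. The Y-linked gene Ddx3y was at 94.7 CPM in WT 3 and at no more than 0.141 CPM elsewhere, so WT 3 alone carried this transcript. Rod markers summed to 34371 to 51268 CPM in every library, and 9 Muller glia markers to 4691 to 7171 CPM.

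Gfap, the filament gene of astrocytes and reactive Muller glia, was 3.18-fold higher in the KO than in the WT libraries. WT 1 to WT 3 held 19.1, 20.4 and 20.7 CPM of it. In the KO libraries it was 78.3, 47.4, 65.4, 67.0 and 61.2 CPM in KO 2 to KO 6. Every KO library lay above every WT library, with KO 2 highest and KO 3 lowest among them. The means were 20.1 ± 0.839 CPM (SD, n = 3) and 63.8 ± 11.2 CPM (SD, n = 5), and the log2 fold change was 1.67 with a standard error (SE) of 0.15. Of the 20167 genes that passed the filter on low counts, 170 had a larger log2 fold change. Bulk RNA cannot tell more cells of a type from more RNA per cell, for Gfap or for any gene below. The gene lies at chr11:102887336-102900912 on the minus strand of GRCm38, and the lincRNA Gm26668 overlaps it on the other strand. The deposited counts hold no gene under the symbol Gm26668. The strand setting of the counting is not given in the sources used here, so reads of overlapping opposite-strand genes cannot be told apart.

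**Figure D1:**
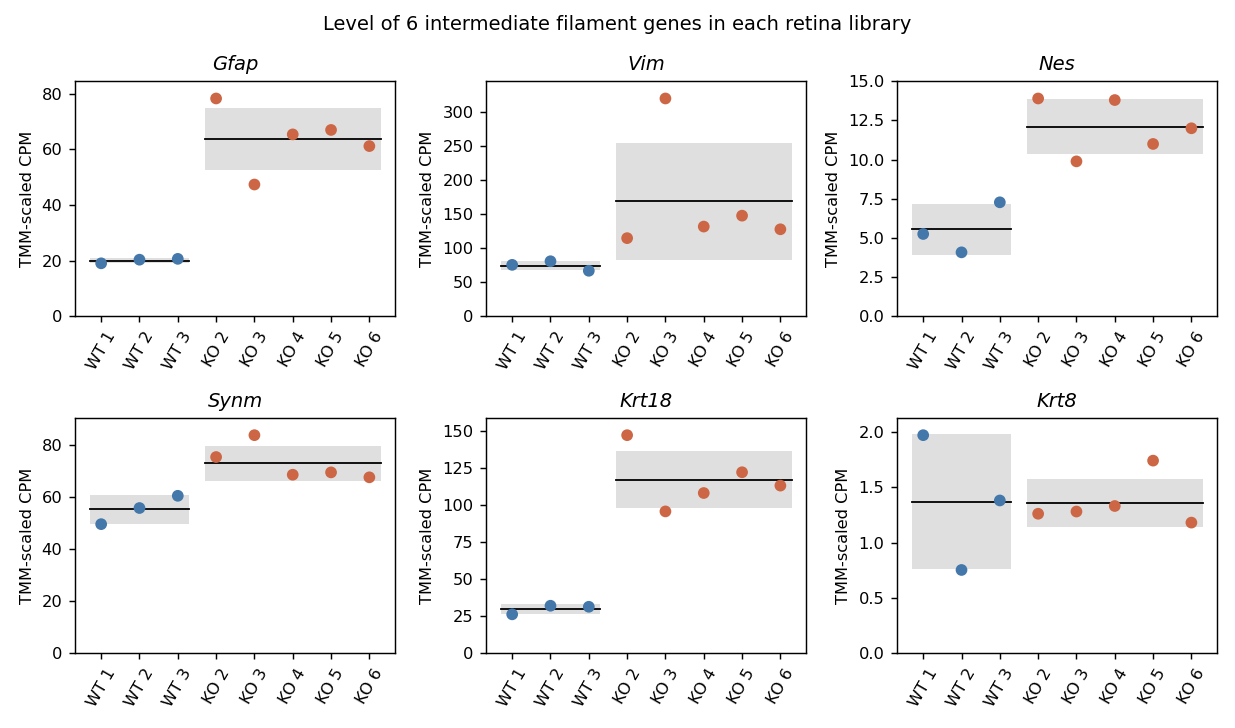
TMM-scaled CPM (vertical axes from 0) of each member in each retina library (horizontal axes), with blue points for WT, orange points for KO, a line at the group mean and a grey band of 1 SD on each side. For Gfap, Vim, Nes, Synm and Krt18 all 5 KO points lie above all 3 WT points, and for Krt8 the groups overlap.

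Krt18, which encodes the type I keratin of simple epithelia, had the largest difference of the members, at 3.92-fold. It stood at 26.2, 32.0 and 31.3 CPM in WT 1 to WT 3. In KO 2 to KO 6 it stood at 147, 95.6, 108, 122 and 113 CPM. The lowest KO library, KO 3, was still far above the highest WT library, and KO 2 was again the highest. Group means were 29.8 ± 3.16 CPM (SD, n = 3) and 117 ± 19.3 CPM (SD, n = 5), with a log2 fold change of 1.97 (SE 0.14). A larger log2 fold change was found for 127 genes. The gene lies at chr15:102028180-102032027 on the plus strand. Of the 31-base words of its transcripts, 11.4% also occur in Gm17847, Gm5200 or Gm7943, so reads from that stretch could be split with these genes. The deposited counts hold no gene under these symbols.

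Krt8, the gene of the type II partner, was scarce in every library and its groups overlapped. Its counts were 36, 16 and 31 in WT 1 to WT 3 and 29, 27, 27, 34 and 26 in KO 2 to KO 6. Scaled, these are 1.97, 0.752 and 1.38 CPM in WT, and 1.26, 1.28, 1.33, 1.74 and 1.18 CPM in KO. WT 1 held the highest and WT 2 the lowest level of all 8 libraries, so the KO values lay within the WT range. Means were 1.37 ± 0.611 CPM (SD, n = 3) in WT and 1.36 ± 0.218 CPM (SD, n = 5) in KO, with a log2 fold change of 0.00 (SE 0.32). Without WT 1, the library with the most surface epithelium markers, the log2 fold change was 0.35. The coefficient of variation was 44.7% over the WT and 16.1% over the KO libraries, and with this SE a modest difference of Krt8 would not be detectable. Krt8 lies at chr15:101996698-102004482 on the minus strand, and 32.3% of its 31-base words also occur in other keratin genes or a keratin pseudogene. The annotated starts of Krt8 and Krt18 face away from each other, with 23697 bases and 0 annotated genes between them. On the other strand the lincRNA Gm36026 overlaps Krt8, and the deposited counts hold no gene under that symbol.

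Set per length, Krt18 was far above its usual partner in every library, and the gap was wider in the KO libraries. The ratio of Krt18 to Krt8 in CPM per kilobase (kb) of transcript was 18.1, 58.0 and 30.9 in WT 1 to WT 3. In KO 2 to KO 6 the ratio was 159, 101, 111, 95.4 and 130, so the groups did not overlap. Krt8 held only 36, 16 and 31 counts in WT 1 to WT 3, so the WT ratios rest on few counts. Keratin 18 can pair with other type II chains, so the summed level of 9 type II keratins, Krt8 included, was set beside it. That sum was 16.5, 2.86 and 3.67 CPM per kb in WT 1 to WT 3. It was 3.85, 3.64, 3.85, 8.96 and 1.68 CPM per kb in KO 2 to KO 6. Krt18 itself was at 18.2 to 22.3 CPM per kb in WT and at 66.5 to 102 CPM per kb in KO. The ratio of Krt18 to the sum was 1.11, 7.79 and 5.92 in WT and 9.45 to 46.6 in KO. Krt18 was chosen for its rise in this comparison, so higher ratios in KO restate that rise and are no further result. WT 1, with its surface epithelium markers, had the lowest ratio and the highest type II sum. Transcript ratios do not measure protein.

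**Figure D2:**
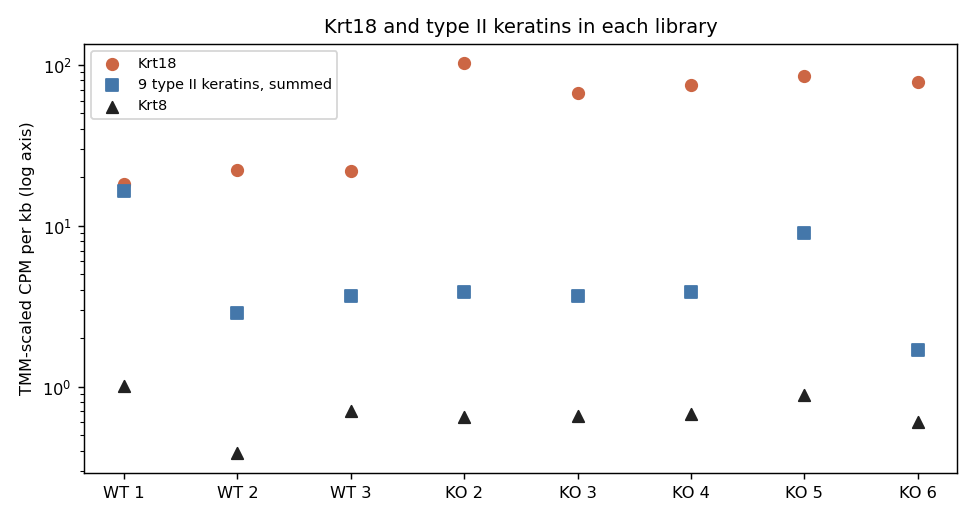
TMM-scaled CPM per kb of transcript (vertical log axis) of Krt18, of 9 type II keratins summed and of Krt8 in each library (horizontal axis). Krt18 runs from 66.5 to 102 in the KO libraries against 18.2 to 22.3 in WT, while the type II sum is highest in WT 1 at 16.5.

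Vim, the gene of vimentin and the filament of resting Muller glia, was 2.26-fold higher in KO, and KO 3 carried much of that mean. In WT 1 to WT 3 it was at 75.8, 81.1 and 67.1 CPM. In KO 2 to KO 6 it was at 115, 320, 132, 148 and 128 CPM. All KO libraries were above all WT libraries, with KO 3 far above the next, KO 5. Means were 74.7 ± 7.07 CPM (SD, n = 3) and 169 ± 85.6 CPM (SD, n = 5), with a log2 fold change of 1.18 (SE 0.31). Without KO 3 the KO mean was 131 ± 13.8 CPM (SD, n = 4), 1.76-fold above WT, and the log2 fold change was 0.82 (SE 0.11). The coefficient of variation over KO libraries was 50.8% with KO 3 and 10.5% without it. Lens cells also make vimentin, and lens markers in KO 3 took 4.12% of all counts against at most 0.147% in any other library. Their part in the Vim level of KO 3 was not tested, and the other 4 KO libraries, with lens marker sums of 1.82 to 180 CPM, were above WT as well. The gene lies at chr2:13573927-13582826 on the plus strand.

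**Figure D3:**
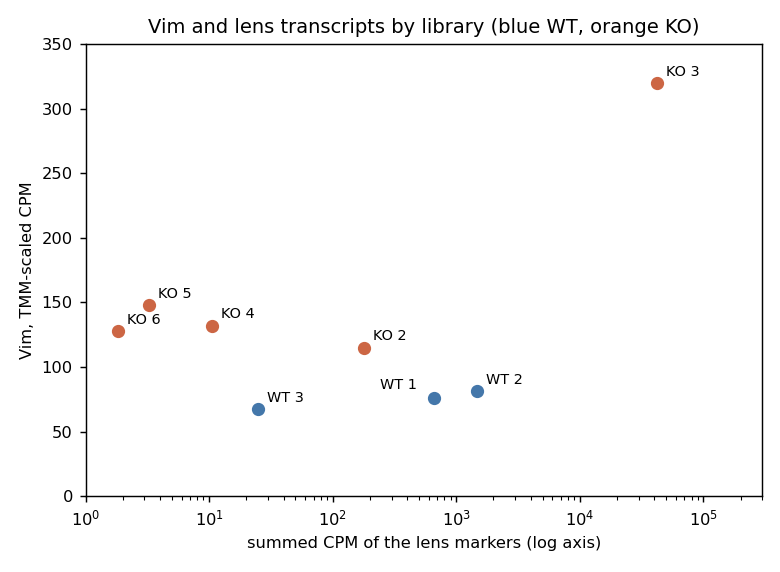
Vim in TMM-scaled CPM (vertical axis from 0) against the summed CPM of 15 lens markers (horizontal log axis), with 1 point per library, blue for WT and orange for KO. KO 3 lies alone at 320 CPM of Vim and 42312 CPM of lens markers, and the other KO libraries lie between 115 and 148 CPM of Vim.

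Nes encodes nestin, a filament protein of neural progenitors that reactive glia can make again, and its level was low but separated by group. It was at 5.26, 4.09 and 7.28 CPM in WT 1 to WT 3. It was at 13.9, 9.89, 13.8, 11.0 and 12.0 CPM in KO 2 to KO 6. No KO library reached down to the WT values, of which WT 3 was the highest. Means were 5.55 ± 1.61 CPM (SD, n = 3) and 12.1 ± 1.75 CPM (SD, n = 5), a 2.18-fold difference with a log2 fold change of 1.13 (SE 0.20). WT libraries held 87 to 164 counts of Nes, and the coefficient of variation over them was 29.1%. Nestin is also found in endothelium and mural cells, and 8 endothelium markers summed to 259 to 271 CPM in WT and 310 to 420 CPM in KO, while 6 mural cell markers summed to 94.8 to 103 CPM in WT and 108 to 162 CPM in KO. In each list 1 marker was called higher, Kdr and Pdgfrb, beside 4.74% of all genes. Over all genes 27.3% had an unadjusted p under 0.05, DESeq2 called 15.5% and limma voom with quality weights called 40.9%. Beside these shares, 3 of 8 endothelium markers had an unadjusted p under 0.05, DESeq2 called 1 and limma voom 6. Of the 6 mural cell markers 3 had such a p, DESeq2 called 2 and limma voom 3. Fibroblast markers summed to 61.6 to 82.0 CPM in WT, 84.4 and 77.8 CPM in KO 2 and KO 3, and 38.6, 53.6 and 31.3 CPM in KO 4 to KO 6. Of the 5 fibroblast markers tested 0 were called by edgeR, beside 7.58% of all genes, 1 had an unadjusted p under 0.05, DESeq2 called 0 and limma voom 3. The part of these cells in the Nes and Vim levels was not tested. The gene lies at chr3:87971078-87980451 on the plus strand.

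Synm, the gene of synemin, had the smallest difference of the members whose groups did not overlap. It was at 49.6, 55.8 and 60.5 CPM in WT 1 to WT 3. It was at 75.4, 83.8, 68.6, 69.5 and 67.6 CPM in KO 2 to KO 6. The gap between the highest WT library and the lowest KO library was narrow. Means were 55.3 ± 5.48 CPM (SD, n = 3) and 73.0 ± 6.78 CPM (SD, n = 5), 1.32-fold apart, with a log2 fold change of 0.40 (SE 0.10). KO 3, the library with the most lens transcripts, had the highest level, and without it the log2 fold change was 0.35 (SE 0.09). The part of lens cells in the Synm level was not tested. As many as 2980 genes had a larger log2 fold change than Synm over all libraries. Synm lies at chr7:67730160-67759742 on the minus strand, where Ttc23 and Gm45102 overlap it on the other strand. Gm45102 held 9, 23 and 13 counts in WT and 32 to 40 counts in KO, and was called higher (log2 fold change 1.26, SE 0.30, edgeR adjusted p = 0.0368). Ttc23 held 74 to 84 counts in WT and 67 to 124 in KO, and was not called (adjusted p = 0.804). Whether reads of these genes and of Synm were kept apart was not tested.

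By the call rule used for all genes, an adjusted p under 0.05 in edgeR's quasi-likelihood test, 5 of the 6 members were called higher and 0 lower. Over all tested genes 4.74% were called higher and 7.58% in either direction. That is 956 higher and 573 lower, and with scaling by library size alone 566 were higher and 787 lower. All KO libraries lay above all WT libraries for 5 members and for 10.8% of all tested genes. Because this contrast chose the members, nothing is read from these counts. Against the same WT libraries, KO 2 and KO 3 alone gave calls of higher for 2 members, Gfap and Krt18, and for 0.624% of all genes. KO 4, KO 5 and KO 6 gave such calls for 5 members and for 22.3% of all genes. The log2 fold changes in these sets of libraries were 1.65 (SE 0.19) and 1.69 (SE 0.07) for Gfap, and 2.02 (SE 0.17) and 1.95 (SE 0.08) for Krt18. For Nes they were 1.10 (SE 0.25) and 1.15 (SE 0.19), and for Krt8 -0.09 (SE 0.44) and 0.07 (SE 0.36). Vim and Synm were further apart, at 1.54 (SE 0.34) and 0.88 (SE 0.08) for Vim and at 0.53 (SE 0.11) and 0.32 (SE 0.08) for Synm. KO 3 holds the highest Vim and Synm levels, and both sets share the WT libraries.

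**Figure D4:**
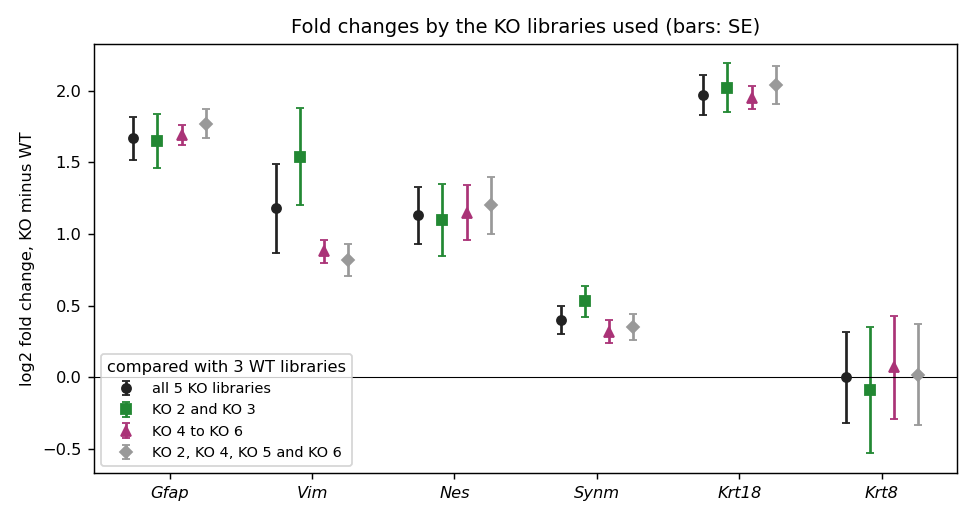
Log2 fold change of KO minus WT (vertical axis, bars of 1 SE on each side) of each member (horizontal axis), for all 5 KO libraries, KO 2 and KO 3, KO 4 to KO 6, and the 4 libraries without KO 3, each against the 3 WT libraries. Gfap stays between 1.65 and 1.77 and Krt18 between 1.95 and 2.04, while Vim spans 0.82 to 1.54.

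With each of the 8 libraries left out in turn, the log2 fold change ran from 1.58 to 1.77 for Gfap and from 1.88 to 2.04 for Krt18. It ran from 0.82 (without KO 3) to 1.29 (without KO 2) for Vim, and from 0.95 (without WT 2) to 1.37 (without WT 3) for Nes. The range was 0.33 to 0.47 for Synm, and for Krt8 it crossed 0, from -0.29 without WT 2 to 0.35 without WT 1. Nes was no longer called without WT 1 or WT 2. Vim and Synm were no longer called without any of WT 1, WT 2, WT 3, KO 4, KO 5 or KO 6. The count called over all genes moved too, from 132 without WT 1 to 3992 without KO 3, so these calls are limits of the comparison and support nothing about the members.

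Per length, Vim and Krt18 were the highest members in both groups. In WT, Vim was highest at 34.0 ± 3.22 CPM per kb (SD, n = 3), followed by Krt18 at 20.8 ± 2.20. Gfap at 7.58 ± 0.317 and Synm at 7.07 ± 0.701 did not differ beyond their spread, nor did Nes at 0.905 ± 0.264 and Krt8 at 0.698 ± 0.312. In KO, Krt18 at 81.5 ± 13.4 (SD, n = 5) and Vim at 76.9 ± 39.0 did not differ beyond their spread. KO 3 carried the Vim mean, with 146 CPM per kb of Vim against 66.5 of Krt18, and in the other 4 KO libraries Vim was at 52.4 to 67.6 and Krt18 at 75.4 to 102. Gfap followed at 24.1 ± 4.21, then Synm at 9.33 ± 0.868, Nes at 1.98 ± 0.285 and Krt8 at 0.694 ± 0.111 CPM per kb. The ratio of Gfap to Vim per kb was 0.208 to 0.256 in WT and 0.374 to 0.564 in the KO libraries other than KO 3, where it was 0.123.

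Over the 8 libraries, log2 CPM of Gfap and Krt18 had a Pearson correlation of 0.99, and Gfap and Nes one of 0.93. The correlation of Gfap with Synm was 0.80 and with Vim 0.62, and Krt8 had correlations of -0.09 to 0.23 with the other members. These values describe 8 libraries that fall into 2 groups, so a difference between the groups alone gives a high value. Among 14696 genes whose log2 CPM averaged 1 or more, those most like Gfap over the 8 libraries included Krt18 (0.994), Gab1 (0.994), Hsp90ab1 (0.991) and Kif1b (0.991). Those most like Krt18 included Gfap (0.994), Stard10 (0.992), Loxl4 (0.990) and Slc1a1 (0.988). Loxl4, a lysyl oxidase-like gene of collagen crosslinking, was at 0.877 to 1.41 CPM in WT and 8.13 to 11.1 CPM in KO.

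Other intermediate filament genes were compared as a list of 34, of which 27 passed the filter on low counts. In edgeR 0 were called in either direction, beside 7.58% of all tested genes, with a median log2 fold change of -0.01 against 0.00 over all tested genes. At an unadjusted p under 0.05 there were 9, beside 27.3% of all genes, of which 5 were higher (Prph, Nefm, Nefh, Ina and Lmna) and 4 lower (Krt12, Krt13, Krt15 and Krt6b). DESeq2 called 4 (Nefh, Ina, Lmna and Krt15), beside 15.5% of all genes, and limma voom with quality weights called 9, beside 40.9% of all genes. Without KO 2 edgeR called 4 of 26, beside 13.9% of all genes, and without KO 3 it called 6 of 25, beside 20.0% of all genes, while leaving out any other single library gave 0. Nothing particular to the list is read from these counts. Among the neurofilament genes of ganglion cells and other neurons, Nefl was at 555 ± 32.5 CPM (SD, n = 3) in WT and 592 ± 101 CPM (SD, n = 5) in KO, and Nefh at 89.6 ± 12.0 and 120 ± 21.0 CPM. Lmna, which encodes lamins A and C of the nuclear envelope, was at 6.39 to 7.38 CPM in WT and 7.80 to 16.5 CPM in KO (log2 fold change 0.79, SE 0.23, adjusted p = 0.0625). Krt15, a keratin of stratified epithelium, was at 7.68 CPM in WT 1 and at 1.13 and 1.87 CPM in WT 2 and WT 3, against 0.0492 to 1.22 CPM in KO. The lowest of these, in KO 4, is under the floor of 3 counts, which is 0.148 CPM in that library. Bfsp1, the lens filament gene of filensin, was at 232 CPM in KO 3 and at 0.182 to 15.2 CPM in the other libraries.

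**Figure D5:**
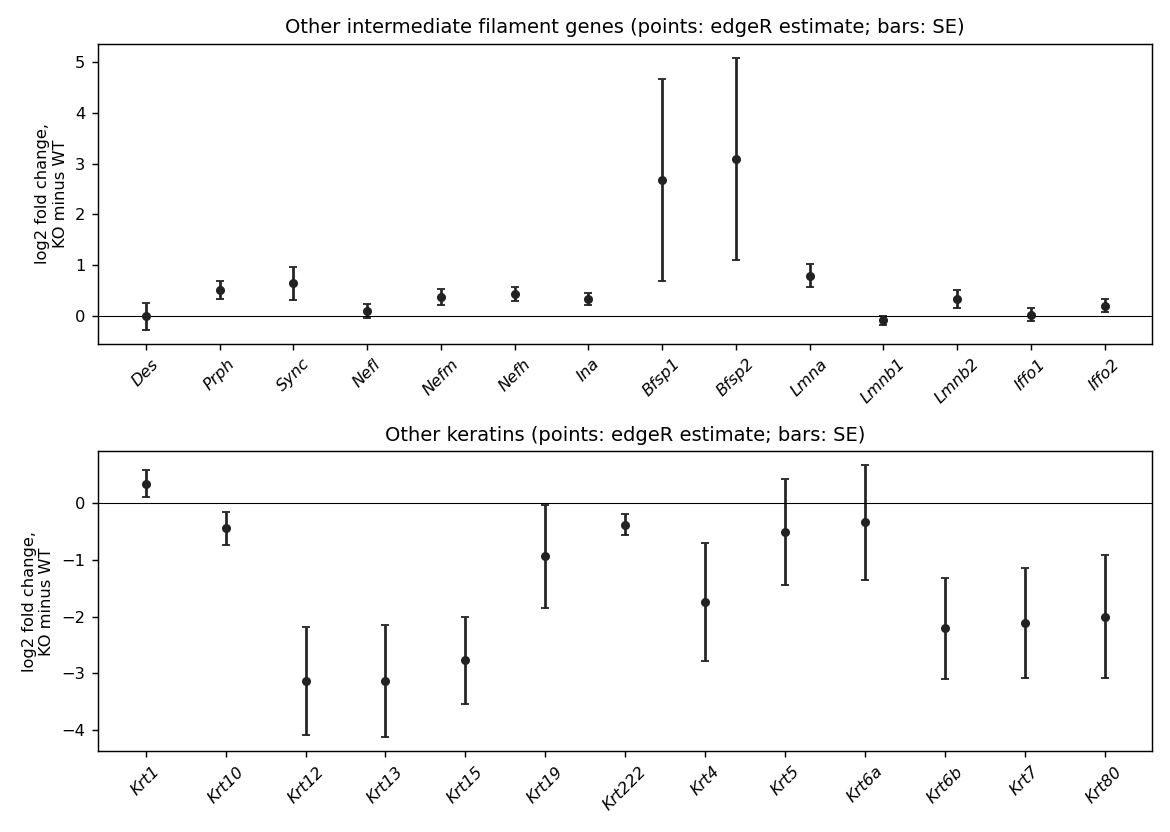
Log2 fold change of KO minus WT (vertical axes, bars of 1 SE on each side) for 14 other intermediate filament genes (upper panel) and the tested keratins other than Krt8 and Krt18 (lower panel). The lens filament genes Bfsp1 (2.68) and Bfsp2 (3.09) have the largest estimates and the widest bars of the upper panel, and the neurofilament and lamin genes lie between -0.09 and 0.79.

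Genes whose products link, chaperone or modify filaments were taken as a list of 15, all of which were tested. Only Plec was called, and it rose. This is 6.67% of the list, close to the 7.58% called over all tested genes, and a share near the background is no result about the list. The median log2 fold change of the list was 0.29 against 0.00 over all genes. Plec encodes plectin, a cytolinker that ties intermediate filaments to junctions and other cytoskeletal networks. WT 1 to WT 3 held 46.3, 37.2 and 43.4 CPM of it. The level was 52.1, 71.3, 98.8, 92.8 and 109 CPM in KO 2 to KO 6. The KO libraries did not overlap with WT, and KO 4, KO 5 and KO 6 were the highest. The log2 fold change was 1.00 (SE 0.21, edgeR adjusted p = 0.0258), and in KO 2 and KO 3 alone it was 0.55 (adjusted p = 0.130). Leaving out any of WT 1, WT 2, WT 3, KO 4 or KO 5 ended every call in this list, in fits that called 132 to 388 genes in all. Leaving out KO 2 or KO 3 gave 2 calls each, beside 13.9% and 20.0% of all genes. Dmd, whose short product Dp71 is found in Muller glia, was at 213 to 228 CPM in WT and was not called. In KO 2 and KO 3 it was at 215 and 216 CPM, and in KO 4 to KO 6 at 164 to 170 CPM. With KO 4 to KO 6 alone Dmd was called lower (-0.40, SE 0.05, edgeR adjusted p = 7.66e-05), in a fit that called 8416 of 19678 genes. Cryab, a small heat shock protein gene that is abundant in lens, was at 4595 CPM in KO 3 and at 19.1 to 129 CPM in the other libraries.

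Genes of cytokine signalling and reactive glia were taken as a list of 12, of which 11 were tested, and 5 rose while 0 fell. That is 45.5% of those tested, beside 4.74% called higher over all genes. This list was chosen with earlier results of these data known, so its direction is no independent support. The median log2 fold change was 1.16 against 0.00 over all tested genes. Fgf2, a growth factor gene known to be induced in injured retina, was at 42.2, 41.3 and 37.4 CPM in WT and 167, 124, 213, 181 and 164 CPM in KO 2 to KO 6 (log2 fold change 2.07, SE 0.16, edgeR adjusted p = 0.000142). Stat3, a transcription factor gene activated downstream of cytokine receptors, was at 53.0 to 60.9 CPM in WT and 109 to 164 CPM in KO (1.23, SE 0.13, adjusted p = 0.00139). Osmr, the oncostatin M receptor gene, was at 4.88 to 6.25 CPM in WT and 11.0 to 15.0 CPM in KO (1.34, SE 0.15, adjusted p = 0.00193). These 3 genes were also called in KO 2 and KO 3 alone. Cebpd, a transcription factor gene of acute responses, was at 2.91 to 3.86 CPM in WT, 6.86 and 5.85 CPM in KO 2 and KO 3, and 18.6 to 22.7 CPM in KO 4 to KO 6 (2.13, SE 0.46, adjusted p = 0.0271). Serpina3n, a protease inhibitor gene of reactive astrocytes, had groups that overlapped, with 5.14 CPM in KO 3 against 5.31 CPM in WT 2 (1.45, SE 0.37, adjusted p = 0.0419). The other 6 tested genes were not called. Their log2 fold changes were 1.16 for Cd44, with KO 3 highest at 38.4 CPM, 0.84 for S100a6, 0.69 for Socs3, 0.59 for C3 and 0.35 for Ednrb. Lcn2, a gene of acute inflammation, had an estimate in the other direction, at -0.39 (SE 0.30). Without KO 3 and WT 1, 6 genes of the list were called, beside 7.80% of all genes. Leaving out WT 1, WT 2, WT 3, KO 4, KO 5 or KO 6 alone lowered the count to 3, in fits that called 132 to 531 genes in all.

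Levels of marker lists that bear on where these filaments may be made were measured in the same libraries. Counts of called markers stand beside 7.58% of all genes called by edgeR, 27.3% with an unadjusted p under 0.05, 15.5% called by DESeq2 and 40.9% by limma voom. Muller glia markers summed to 4691 to 4881 CPM in WT and 4992 to 7171 CPM in KO, with KO 2 highest, and 3 of 9 were called higher (Sox9, Abca8a and Kcnj10), beside 4.74% of all genes. Of these 9, 6 had an unadjusted p under 0.05, DESeq2 called 4 and limma voom 6. Astrocyte markers summed to 28.4 to 32.5 CPM in WT and 31.6 to 44.4 CPM in KO. None of the 4 astrocyte markers tested was called by edgeR, 1 had an unadjusted p under 0.05, and DESeq2 and limma voom each called 1. Pigment epithelium, an epithelium that can make keratins 8 and 18, had marker sums of 76.0 to 95.7 CPM in WT and 67.9 to 96.1 CPM in KO. Of its 10 markers 0 were called by edgeR, 1 had an unadjusted p under 0.05, DESeq2 called 1 and limma voom 4. The summed level of 6 microglia markers was 22.9 to 25.8 CPM in WT and 28.6 to 40.8 CPM in KO. Of the 6, 2 were called higher (Csf1r and Tmem119), beside 4.74% of all genes, 2 had an unadjusted p under 0.05, DESeq2 called 2 and limma voom 3. KO 2, which had the highest Gfap and Krt18, also had the highest sums of Muller glia, rod (51268 CPM) and microglia markers. The part of these lists in the member levels was not tested.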

How the data were processed

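The authors deposited a table of 26824 genes by 8 libraries whose values are whole numbers with differing totals. They may be rounded estimated counts, since the submitters' processing notes name Salmon 1.10.2, beside Trim Galore, DESeq2 and GRCm38, with no role or order. Every deposited gene has at least 16 counts in total, 106 rows carry no symbol, and strand is not given in the sources used here.

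From these counts, edgeR 4.0.16 under R 4.3.3 computed TMM factors, kept 20167 genes by filterByExpr and ran the quasi-likelihood test (glmQLFit, glmQLFTest) of all 5 KO against all 3 WT libraries, without covariates. Benjamini-Hochberg adjustment ran over the tested genes, with calls made at an adjusted p under 0.05. Each SE came from its fold change and its F value. P-values measure the spread between these samples, which the labels describe as individual mice. CPM are per 1e+06 counts, with log2 values for correlations and principal components using a prior count of 2. A floor of 3 counts is 0.130 to 0.164 CPM and covers counting error only. Every pair of libraries of a group differed by more than sampling noise (chi-square per degree of freedom of at least 5.38). Repeat preparations of the same mouse could do so too, so each library counted as a replicate by its label alone.

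Members and lists were chosen with earlier results of these data known. Named are the members, every called gene of the 3 lists, the 5 genes most like Gfap and Krt18, and Kcnv2, except 1 gene that is not reported here. Other genes were named after their values were seen. Gene positions, lengths of the longest coding transcript of the members and 31-base words came from GENCODE M21 on GRCm38, which held 22121 of the table's genes. For the type II keratins other than Krt8 the length was that of the longest transcript of any type. Alternatives were DESeq2 1.42.0 and its size factors, limma 3.58.1 voom with quality weights, library size alone, other filters, left-out libraries, a replicate block, GC offsets by loess (span 0.5) and removal of lens genes. Leaving out KO 3 with WT 1 and the crossed pairing were chosen after seeing the data. The edgeR steps were tested on simulated data.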

Additional observations from a re-analysis of the deposited data

Results flagged for a closer look

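Values over the 5 KO libraries were tested for a single library far from the others, as the gap from the highest or lowest library to its nearest neighbour divided by the whole range. Of 23 values tested 4 exceeded the limit of 0.71, where chance alone gives about 1.15. For Vim the gap of KO 3, at 320 CPM, was 0.838 of the range. For Krt8 the gap of KO 5, at 1.74 CPM or 34 counts, was 0.737 of the range. For the summed lens markers the gap of KO 3 was 0.996 of the range. For the summed oligodendrocyte markers the gap of KO 2, at 45.1 CPM, was 0.736 of the range.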

How the results depend on the processing

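Log2 fold changes of Gfap, Vim, Nes, Synm and Krt18 were above 0 under every alternative run for them, which the crossed pairing was not. Over all genes 1529 were called, against 3127 with DESeq2, 8248 with limma voom and 180 with KO 2 and KO 3 alone, and 118 to 8416 with 1 library or 2 KO libraries left out. Singly, the count was 132 without WT 1, 135 without WT 2, 199 without WT 3, 2781 without KO 2, 3992 without KO 3, 365 without KO 4, 388 without KO 5 and 531 without KO 6. Only numbers 2 and 3 occur in both groups. With the replicate block over WT 2, WT 3, KO 2 and KO 3 there were 52 calls, and 14 with no block in the same libraries. Deviations of same-numbered libraries correlated at -0.00442 and -0.241, so the numbers were not taken to pair them, and the crossed pairing gave 527 calls. The block gave 1.38 for Vim, 1.09 for Nes and 0.45 for Synm, and no block 1.56, 1.06, 0.45 and, for Gfap, 1.61, none of them called. KO 2 and KO 3 alone gave 1.54 for Vim, 1.10 for Nes and 0.53 for Synm, also not called. Library size alone gave 566 higher and 787 lower against 956 and 573, and a median of -0.03 over all tested genes against 0.00. Vim was not called at 1.14 with library size alone or at 1.18 with no filter on low counts. Synm was not called at 0.40 with no filter, at 0.30 with the GC correction or at 0.27 without KO 3 and WT 1. Over tested genes with GC content the Spearman correlation of log2 fold change with GC was 0.459, and the GC correction gave 1.47 for Gfap, 1.76 for Krt18 and 0.93 for Nes. With 1 library or 2 KO libraries left out the ranges were 1.54 to 1.81 for Gfap, 1.83 to 2.09 for Krt18, 0.74 to 1.43 for Vim, 0.95 to 1.37 for Nes, 0.32 to 0.47 for Synm and -0.29 to 0.35 for Krt8, and without KO 3 and WT 1 together Krt8 was at 0.36. Calls among filament partner genes were 2 with DESeq2, 6 with voom, 0 with KO 2 and KO 3 alone, 0 with the block, 0 with no block, 3 without KO 3 and WT 1, and 0 to 8 with libraries left out. Calls among glial response genes were 3 with KO 2 and KO 3 alone, 3 with the block, 1 with no block and 3 to 7 with libraries left out. Calls among other intermediate filament genes were 4 with DESeq2, 9 with voom, 1 with a filter of 1 CPM in 3 libraries, 1 with lens genes left out, 1 without KO 3 and WT 1, and 0 to 13 with libraries left out, with 4 without KO 2 and 6 without KO 3. The cause of these shifts was not tested. With 16 to 36 counts a library, Krt8 is measured with few counts.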
